A study of Mus musculus with 10 samples.

Results

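H3K27me3 peaks were compared at 592 regions of the mouse genome that had a peak in a parental lymphoma line and in its R100 and R500 derivatives, but no peak in the R1000 and R4000 derivatives. The deposited peaks of all 5 lines were joined into 47264 regions, each a stretch of overlapping peaks, and these 592 (1.25%), called members, were chosen by their pattern of presence alone. The parental line is a B-cell lymphoma line from a C57BL/6J mouse that carries Eμ-Myc, a Myc transgene driven by an immunoglobulin heavy chain enhancer that is active in the B lineage, and is Cdkn2a-/-. The resistant derivatives share this genotype and that single parental origin, so they are sub-lines of 1 tumour. They are steps of a single escalation of mafosfamide, a drug that alkylates DNA, so dose and time in culture cannot be told apart. R100 was taken at 100 nM on day 10, R500 at 500 nM on day 18, R1000 at 1000 nM on day 23 and R4000 at 4000 nM on day 37. Chromatin for ChIP-seq was taken from cells grown without the drug. Each line is represented by 1 list of peak positions, so the level of the mark and the sequencing depth are unknown, and no spread between replicates and no test between lines could be had. The parental list held 10778 peaks, that of R100 25180, that of R500 21888, that of R1000 9595 and that of R4000 only 6820, and a shorter list cannot be told apart from a less deeply sequenced one. A member therefore has no called peak in R1000 and R4000, which does not show that the mark was gone. Where values of several lines stand together, they are in the order parental line, R100 and R500, followed by R1000 and R4000 where 5 are given.

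H3K27me3 is placed on histone H3 by the polycomb repressive complex PRC2, whose catalytic subunit is Ezh2 or Ezh1. The mark is known for covering silent promoters of developmental genes, often those rich in CpG dinucleotides, and it can spread from such sites into broad domains. In B cells, as in other differentiated cells, Hox genes and other lineage-specifying genes of foreign tissues are its well-known targets.

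Sequences are shown for the members with the most peak coverage, for a member in Dennd5b far from any R1000 or R4000 peak, and for the widest region with a peak in all 5 lines. Each is the central 200 bp of its region on the plus strand of mm9, without any annotated UTR, and capitals mark CpG dinucleotides. The Dennd5b member was added after its values had been seen. It lies inside the gene, 252 bp downstream of the transcription start site, and the word promoter in its label refers only to this nearness.
intergenic, nearest TSS Spaca7 (chr8:12502851-12503050): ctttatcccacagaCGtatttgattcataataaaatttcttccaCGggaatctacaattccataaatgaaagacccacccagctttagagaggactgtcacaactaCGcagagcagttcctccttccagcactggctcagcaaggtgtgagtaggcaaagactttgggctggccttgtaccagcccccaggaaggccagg
Hrk intron (chr5:118622176-118622375): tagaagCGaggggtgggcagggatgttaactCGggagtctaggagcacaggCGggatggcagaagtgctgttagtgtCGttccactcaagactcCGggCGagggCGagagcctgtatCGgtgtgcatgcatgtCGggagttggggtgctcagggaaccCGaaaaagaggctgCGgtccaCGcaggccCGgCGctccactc
Islr2 gene (chr9:58048776-58048975): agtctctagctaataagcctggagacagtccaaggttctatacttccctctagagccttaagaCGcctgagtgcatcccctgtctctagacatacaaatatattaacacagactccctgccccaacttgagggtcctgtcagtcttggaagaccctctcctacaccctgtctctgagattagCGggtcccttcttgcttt
Igfbp5 intron (chr1:72917351-72917550): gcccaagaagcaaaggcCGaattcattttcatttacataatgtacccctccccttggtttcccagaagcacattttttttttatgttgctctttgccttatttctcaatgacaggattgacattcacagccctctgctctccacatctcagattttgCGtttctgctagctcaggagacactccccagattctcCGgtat
Dennd5b promoter (chr6:149049551-149049750): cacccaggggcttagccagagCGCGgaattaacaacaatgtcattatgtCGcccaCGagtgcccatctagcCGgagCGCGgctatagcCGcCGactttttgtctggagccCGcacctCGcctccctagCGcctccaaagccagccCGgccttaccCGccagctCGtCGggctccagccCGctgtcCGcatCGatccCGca
Hoxa7, peak in all 5 lines (chr6:52168826-52169025): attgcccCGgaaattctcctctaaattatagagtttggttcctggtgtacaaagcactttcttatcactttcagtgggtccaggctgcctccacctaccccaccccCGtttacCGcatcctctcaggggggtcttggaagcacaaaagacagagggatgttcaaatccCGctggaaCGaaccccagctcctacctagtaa
The member without a gene nearby held 3 CpG dinucleotides in these 200 bp, those in Islr2 and Igfbp5 held 2 and 3, and the one in Hrk held 14. At Dennd5b there were 20, with 1.01 times the number of CpG dinucleotides that the base composition gives. In the Hoxa7 window there were 5. CpG content thus varied widely among individual members, and the widest retained region was not CpG-rich at its centre. That is a single region, and as a set the regions with a peak in all 5 lines were richer in CpG than members. Their median ratios of observed to expected CpG were 0.562 and 0.341.

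Of the 3182 regions with a peak in the parental line, R100 and R500, the 592 members made up 18.6% (95% Wilson interval 17.3 to 20%, which covers counting of regions only). The other regions of this kind comprised 1678 with a peak in all 5 lines, 670 absent only in R4000 and 242 absent only in R1000. Absence in both R1000 and R4000 was common among parental regions in general, at 6337 of 9433 (67.2%), and more frequent in regions with less support. It applied to 63.8% of the 4852 regions found in R100 and R500 but not in the parental line, and to 95.6% of the 5195 found in the parental line but in neither R100 nor R500. It also applied to 73.7% of the 1056 regions found in the parental line and in just 1 of R100 and R500. When only the 6820 widest peaks of every list were kept, 214 of 2090 regions (10.2%) had the members' pattern, a setting that changed the number of peaks and their smallest width together. With peaks of at least 200 bp there were 302 members, and 196 and 85 regions remained where R1000 and R4000 had no peak within 1000 bp and within 5 kb.

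The members were narrow in the lines that held them. In the parental line a median of 100 bp was covered (quartiles 50 and 150 bp, range 50 to 800 bp), and 170 members were covered over just 50 bp, the smallest peak in the lists. R100 covered a median of 200 bp (range 50 to 1550 bp) and R500 a median of 200 bp (range 50 to 1250 bp). More bases were covered in R100 than in the parental line at 412 members and fewer at 98. R500 and R100 did not differ in a common direction, with R500 the wider at 250 members and R100 at 261. In the regions with a peak in all 5 lines, the corresponding medians were 300, 800 and 800 bp. Peaks of R1000 and R4000 can also join neighbouring peaks into such a region, which widens it. Absence at high dose was less frequent with more parental coverage. Part of this follows from the rule, because a wider peak has more bases that an R1000 or R4000 peak can overlap. Among regions covered over 50 bp in the parental line, 170 of 426 were members (39.9%), against 12 of 662 (1.81%) where at least 500 bp were covered.

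**Figure D1:**
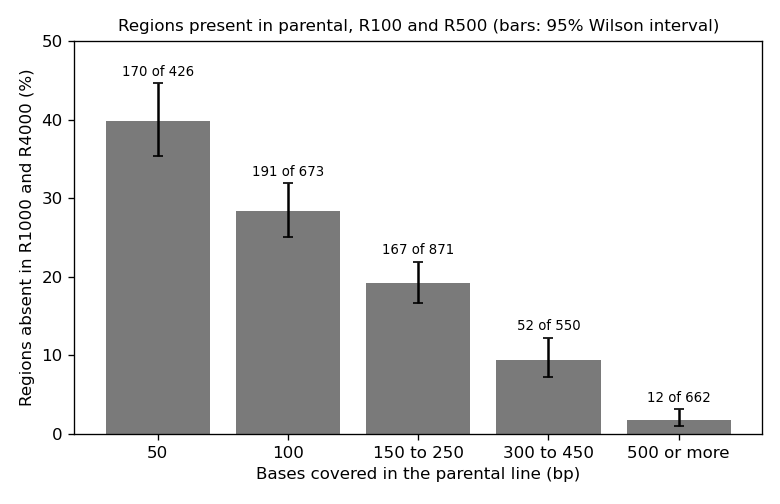
Share of regions present in the parental line, R100 and R500 that had no peak in R1000 and R4000 (vertical axis, %), by the number of bases covered in the parental line (horizontal axis, bp). Bars show the share, error bars the 95% Wilson interval over regions, and the numbers the members of all regions in the class. The share goes from 39.9% in the narrowest class to 1.81% in the widest. Part of this follows from the rule, because wider peaks have more bases that an R1000 or R4000 peak can overlap.

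In 396 members (66.9%) at least 1 base was covered in the parental line, R100 and R500 alike. In the other 196 the 3 lines were joined only through overlapping neighbours. In regions with a peak in all 5 lines, 92.6% had such a shared base.

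The member with the most coverage lies between genes on chromosome 8 (12502151 to 12503750), and the closest TSS (transcription start site), that of Spaca7, is 69299 bp away. Peaks of the parental line, R100 and R500 covered 650, 1450 and 1250 bp of it. The 5 kb on both sides held a further 950, 1250, 1500, 100 and 0 bp. A stretch with broad coverage in the first 3 lines was thus represented by 100 bp in the R1000 list and had no peak in that of R4000. Part of this follows from the rule, because these flanks include other members. Those covered over 350, 150 and 300 bp in the parental line are among them, and members have no R1000 or R4000 peak by choice.

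Next came an intronic region of Hrk, on chromosome 5 from 118621901 to 118622650 and 2128 bp from the TSS. Hrk encodes a BH3-only protein of the Bcl2 family that promotes apoptosis. Peaks covered 500, 750 and 650 bp of the region. Within 5 kb of the Hrk TSS, the 5 lines covered 500, 1623, 1400, 150 and 50 bp. The entire parental coverage near this TSS lay in the member, and the nearest R1000 and R4000 peaks stood 800 and 700 bp away. Of the 24 genes of the Bcl2 family, 2 had a region present in the parental line, R100 and R500 within 5 kb of the TSS, and Hrk was the 1 with a member. Over all 1485 protein-coding genes with such a region the share with a member was 24.3%, and a single gene does not set the family apart.

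The third member, on chromosome 9 from 58048451 to 58049300, has 214 bp in exons of Islr2, a gene for a leucine-rich repeat membrane protein. Of it, 500, 850 and 550 bp were covered, and R1000 and R4000 peaks stood 1200 and 1250 bp away. The next was intronic in Igfbp5, which encodes a protein that binds insulin-like growth factors, on chromosome 1 from 72917101 to 72917800. Here 500, 600 and 700 bp were covered, and the nearest R1000 peak was 400 bp away. In Bai2, a gene for an adhesion G-protein-coupled receptor, an intronic member on chromosome 4 from 129665651 to 129666500 was covered over 500, 550 and 700 bp. The flanking 5 kb on both sides of the Bai2 member held 1050 bp of parental peaks, and R1000 and R4000 covered 1850 and 800 bp there. Around these members R1000 and R4000 thus had peaks outside the member. Some of these overlapped parental peaks, as in the flanks at Islr2, Igfbp5 and Bai2. A member in Myof, which encodes a ferlin of membrane repair, lay on chromosome 19 from 38116851 to 38117800. It was covered over 450, 950 and 500 bp, with an R1000 peak 50 bp away.

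**Figure D2:**
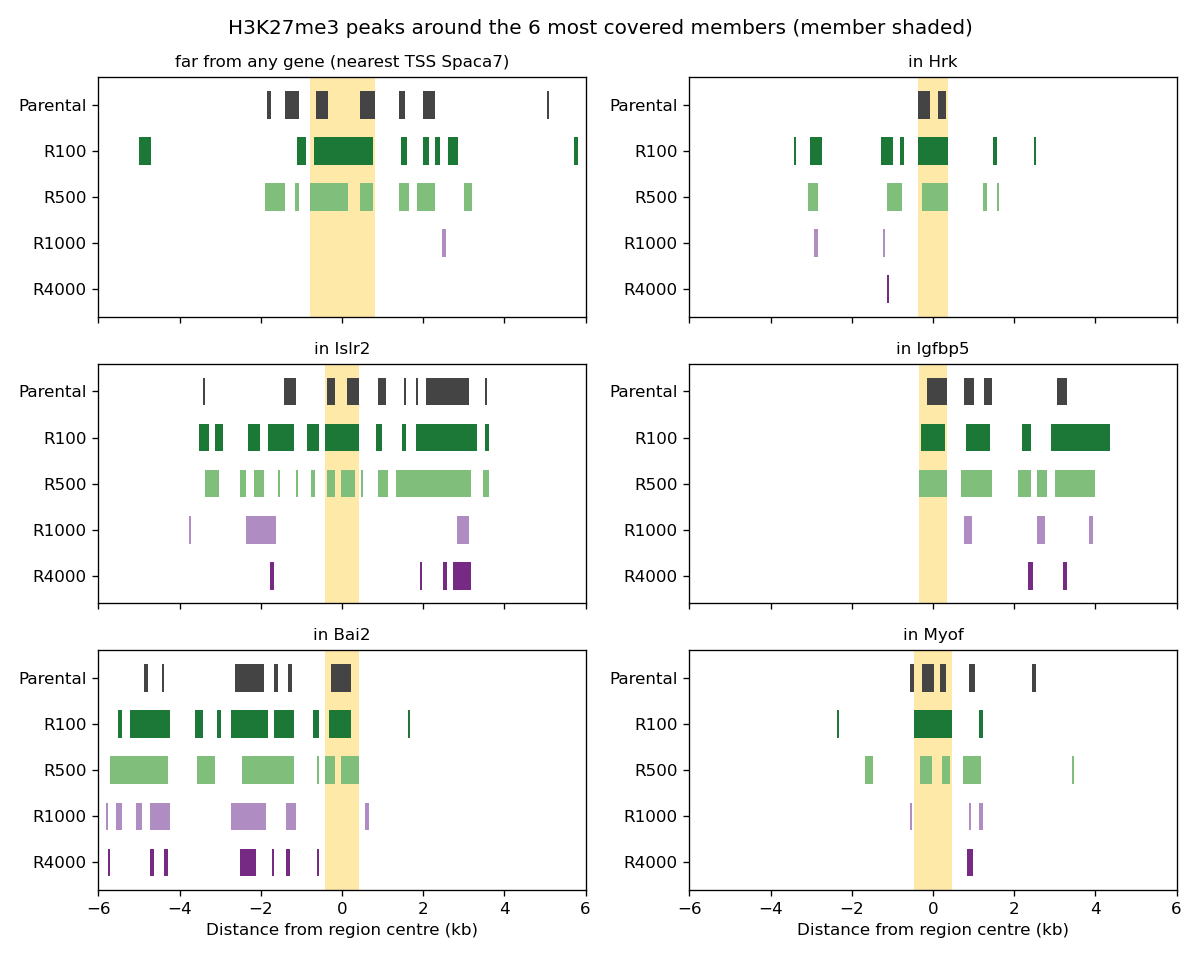
Peaks of the 5 lines (rows) in the 6 kb on both sides of the 6 members with the most coverage (horizontal axis, distance from the centre of the member in kb). Filled boxes are called peaks and the shaded band is the member, which by rule holds no R1000 or R4000 peak; around the members in Hrk, Islr2, Igfbp5, Bai2 and Myof both R1000 and R4000 have peaks outside the band, and around the intergenic member there is a single R1000 peak.

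Of the 25 members with the most coverage, 21 lay within 5 kb of a TSS, 3 of them over the TSS itself. By position, 13 overlapped an exon, 8 lay in introns and 4 between genes. The parental line covered 300 to 650 bp of them, R100 300 to 1450 bp and R500 300 to 1250 bp. The 3 regions over a TSS were those of Gpnmb, which encodes a transmembrane glycoprotein, Spint1, an inhibitor of serine proteases, and Matn4, a matrilin of the extracellular matrix. The parental line, R100 and R500 covered 350, 1050 and 550 bp at Gpnmb. At Spint1 they covered 300, 1050 and 550 bp. At Matn4 they covered 300, 450 and 500 bp. Close to a TSS were also the members of Klhl3, a substrate adaptor of a Cullin ubiquitin ligase (203 bp), Dennd5b, with a DENN domain as in activators of Rab proteins (252 bp), Pax3, a paired-box transcription factor of neural crest and muscle (409 bp), and Kcnc1, a voltage-gated potassium channel (117 bp). Another lay 1387 bp from the immunoglobulin kappa variable segment Igkv9-129 and was covered over 300, 550 and 450 bp. In 17 of the 25, an R1000 or R4000 peak stood within 1000 bp, and in 3 there was none within 5 kb.

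Most members had a peak of a high-dose line nearby. An R1000 or R4000 peak lay within 1000 bp of 396 members (66.9%) and within 5 kb of 507 (85.6%). The median number of bases between a member and the nearest such peak was 550 bp, and 37 members were directly adjoined by one. For R1000 alone the median was 800 bp and for R4000 alone it was 1325 bp. Peaks of R1000 or R4000 stood within 1000 bp on both sides of 110 members and on 1 side of 286. Regions found in the parental line alone had such a peak within 1000 bp in 22.6% of cases, and those found in R100 and R500 alone in 49.2%. Of the 396 members with a near R1000 or R4000 peak, the nearest region holding one was present in all 5 lines for 87, in the parental line and some other lines for 91, and had no parental peak for 218. The 396 members with such a neighbour were a different set from the 396 with a base shared by the parental line, R100 and R500, and 265 members belonged to both.

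**Figure D3:**
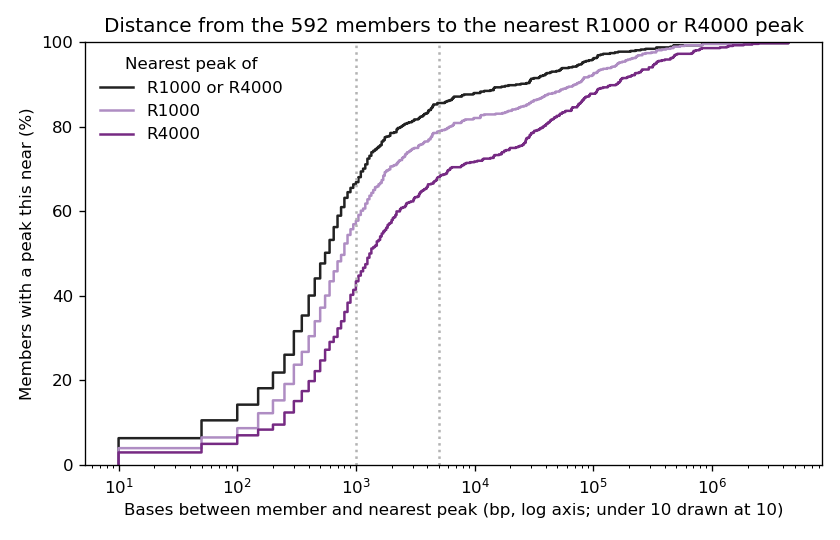
Cumulative share of the 592 members (vertical axis, %) with a peak of R1000, of R4000 or of either within a given number of bases (horizontal axis, bp, log scale). Dotted lines mark 1000 bp and 5 kb, where 66.9% and 85.6% of members had an R1000 or R4000 peak.

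In the 5 kb on both sides of a member, outside the member itself, the median coverage in the 5 lines was 300, 1050, 950, 250 and 100 bp. Summed over all members, these flanks held 325 kb of parental peaks, 297 kb of R1000 peaks and 194 kb of R4000 peaks, with flanks of neighbouring members counted more than once. The flanks of 20.9% of members had no parental peak, those of 21.1% no R1000 peak and those of 31.9% no R4000 peak. R1000 was thus close to the parental line in these flanks, while R4000 covered fewer bases. The flanks were not free of the rule. Another member lay within 5 kb of 107 members, and there the rule itself fixed the absence of R1000 and R4000 peaks. How much of the lower R4000 value came from its shorter list was not tested.

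For 351 members the nearest TSS was within 5 kb and outside the member. The nearest other peak of the parental line was on the side of that TSS in 185 of 280 cases (66.1%, 95% Wilson interval 60.3 to 71.4%). This was so for 64.9% in R1000 (59.2 to 70.2%) and 73.9% in R4000 (68.0 to 79.0%). Peaks next to a member were therefore on its promoter side more often than not in each of these lines, and the intervals of the lines overlapped.

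At the border of the rule, presence and absence were separated by small differences. An R1000 or R4000 peak directly adjoined 37 members, and the 3 with the widest parental coverage among these are given here. One was on chromosome 6 from 51717651 to 51718100, 146020 bp from any TSS, and was covered over 450, 150 and 300 bp in the parental line, R100 and R500. Another was 586 bp from the TSS of Ptpn21, a protein tyrosine phosphatase, with 400, 200 and 100 bp. The last was 2464 bp from a U2 small nuclear RNA gene, with 350, 150 and 100 bp. Just outside the rule, 162 regions with a peak in the parental line, R100 and R500 had 50 bp covered in R1000 and R4000 together. The broadest of these in the parental line overlapped Kiss1, which encodes the precursor of kisspeptin, and was covered over 750, 800 and 900 bp in the parental line, R100 and R500, and over 50 bp in R1000. A region on chromosome 12 from 114114901 to 114116850 was covered over 650, 1950 and 1700 bp, and over 50 bp in R4000. At the TSS of Hivep3, a zinc finger protein gene, 550, 700 and 350 bp were covered, and R1000 covered 50 bp.

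A smaller group of members stood far from any peak of the high-dose lines. No R1000 or R4000 peak lay within 50 kb of 40 members, and 35 of these (87.5%, 95% Wilson interval 73.9 to 94.5%) were within 5 kb of a TSS. Of the other 552 members, 63.4% were (59.3 to 67.3%). Within 1 kb of a TSS were 26 of the 40 (65.0%), against 30.8% of the others. The distance of 50 kb was chosen after the values had been seen, and no test was made. The difference in nearness to a TSS depended on this distance. Of the 85 members without an R1000 or R4000 peak within 5 kb, 54 (63.5%, 52.9 to 73.0%) were within 5 kb of a TSS. Of the 396 members with such a peak within 1000 bp, 67.4% were (62.7 to 71.9%). The median ratio of observed to expected CpG dinucleotides in the 300 bp around the centre was 0.559 in these 40 members and 0.330 in the others, although the GC content was similar (53.8 and 52.7%). Their median coverage was 100, 275 and 225 bp, beside 100, 200 and 200 bp over all members, so their parental coverage was like that of members in general.

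The most covered of these isolated members was at Dennd5b, on chromosome 6 from 149049351 to 149049950, with 246 bp in an exon. The parental line, R100 and R500 covered 300, 450 and 550 bp of it, and the nearest R1000 and R4000 peaks were 155550 and 86900 bp away. The member over the TSS of Bmper, which encodes a secreted regulator of bone morphogenetic proteins, was covered over 250, 400 and 550 bp. A member 2375 bp from the TSS of Meis2, a homeobox gene whose product partners Hox and Pbx proteins, was covered over 200, 300 and 200 bp, and the nearest R4000 peak was 821550 bp away. The member 52 bp from the TSS of Epm2a, the glycogen phosphatase laforin, was covered over 200, 300 and 200 bp. At Cdc14b, which encodes a phosphatase of the cell cycle, the member over the TSS was covered over 150, 550 and 400 bp. At these regions the parental line, R100 and R500 had H3K27me3 peaks, and R1000 and R4000 had none within 50 kb.

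Within 5 kb of the TSS of 444 genes lay a member, and 379 of these genes (85.4%) had an R1000 or R4000 peak elsewhere in the same window. Both lines had one at 274 genes (61.7%). Of the 363 protein-coding genes among them, 292 had an R1000 peak, 247 an R4000 peak and 49 (13.5%) neither. Median coverage within 5 kb of the TSS of these 363 genes was 400, 1300, 1250, 250 and 100 bp. Part of this pattern follows from the rule, since the member itself lies in the window and is not covered in R1000 or R4000. Coverage nevertheless exceeded the parental value at 107 genes (29.5%) in R1000 and at 46 (12.7%) in R4000, and it was at least the parental value in both lines at 42 genes. At these genes other parts of the promoter carried the peaks.

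Developmental transcription factors were frequent among genes with a member, as they were among all genes with a region present in the parental line, R100 and R500. Of all 22225 protein-coding gene symbols, 361 (1.62%) had a member within 5 kb of the TSS, which is 24.3% of the 1485 with any region present in these 3 lines. Among the 39 Hox genes, which pattern the body axis, 7 had a member, against 28 with any such region (25%). Among 152 other homeobox genes, 21 had a member of 69 with any such region (30.4%). In the Sox, Gata, T-box and forkhead families the numbers were 10 of 27 (37%) among 83 genes, and in the Wnt and Notch pathways 9 of 27 (33.3%) among 73 genes. These shares are read against 24.3% as a description, with no test.

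Each of the 7 Hox genes with a member also had a region present in all 5 lines within 5 kb of the TSS. They were Hoxc6, Hoxc8, Hoxc9, Hoxc11, Hoxb7, Hoxb8 and Hoxb9. Coverage within 5 kb of their TSS ranged from 600 to 1400 bp for the parental line, from 2950 to 5170 bp for R100 and from 2700 to 6101 bp for R500. For R1000 it ranged from 1100 to 1700 bp and for R4000 from 500 to 1450 bp. At Hoxc6, for example, 1000, 3700, 2700, 1450 and 500 bp were covered in the order of increasing dose. At Hoxb7 the values were 600, 4800, 5050, 1200 and 1450 bp. None of the 7 was covered less in R1000 than in the parental line, and 3 were covered less in R4000. Around these 7 TSS, which lie in the Hoxb and Hoxc clusters, R1000 thus covered as many bases as the parental line or more, although the members among them had no peak. The transcript Gm20398, which overlaps the Hoxc cluster on chromosome 15, had 5 members within it or 5 kb of it, more than any other gene. Those 5 members were covered over 1000, 2050 and 2350 bp, against 10200, 24750 and 25750 bp over the whole transcript and its flanks. R1000 and R4000 covered 9300 and 5900 bp over that span, fewer than the parental line.

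The other homeobox genes with a member had a median coverage of 700, 2600, 2400, 550 and 250 bp within 5 kb of the TSS. Of these 21 genes, 12 were covered less in R1000 than in the parental line and 18 less in R4000. At Pax3, the values from the parental line to R4000 were 950, 3400, 5300, 550 and 250 bp. At Pax6, the paired-box gene of eye development, they were 1050, 3350, 2600, 350 and 200 bp. At Onecut3 they were 1300, 4450, 4350, 1250 and 650 bp, and 3 members lay in or near this gene. At Meis2 they were 250, 1626, 1100, 0 and 0 bp, and Meis2 was the only gene with a member in this list that had no R1000 or R4000 peak there. At Hmx2 both R1000 and R4000 covered more than the parental line, with 1550, 5150, 5500, 3950 and 1700 bp. Zic2, a zinc finger gene of neural development outside these lists, and Islr2 with its neighbour 1600029O15Rik had 3 and 4 members in or near them.

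In the Sox, Gata, T-box and forkhead families, Foxl2, which maintains ovarian identity, had 100, 350, 600, 0 and 0 bp covered from the parental line to R4000. At Foxb1 the values were 100, 1947, 1100, 0 and 0 bp. The most covered members of these families were near Foxa1, a pioneer factor of endoderm (1050, 3650, 3593, 1743 and 650 bp), and Foxd1 (1400, 2700, 1950, 800 and 750 bp). At Foxc1 the coverage was broad in every line, with 3936, 6086, 6486, 4536 and 2386 bp. Of the Wnt and Notch genes, Wnt7a (100, 1000, 250, 0 and 0 bp) and Wnt9a (50, 900, 750, 0 and 0 bp) had no peak in R1000 and R4000. Fzd4, a Wnt receptor, had 1650, 2800, 2000, 1350 and 700 bp covered around its TSS. The member counted for Fzd4 lay in an intron of its neighbour Tmem135, 1432 bp from the TSS of Tmem135. Wnt1 had 350 bp in the parental line and 1550 and 1250 bp in R1000 and R4000. Members of 1 pathway thus differed widely in what remained at their promoters.

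**Figure D4:**
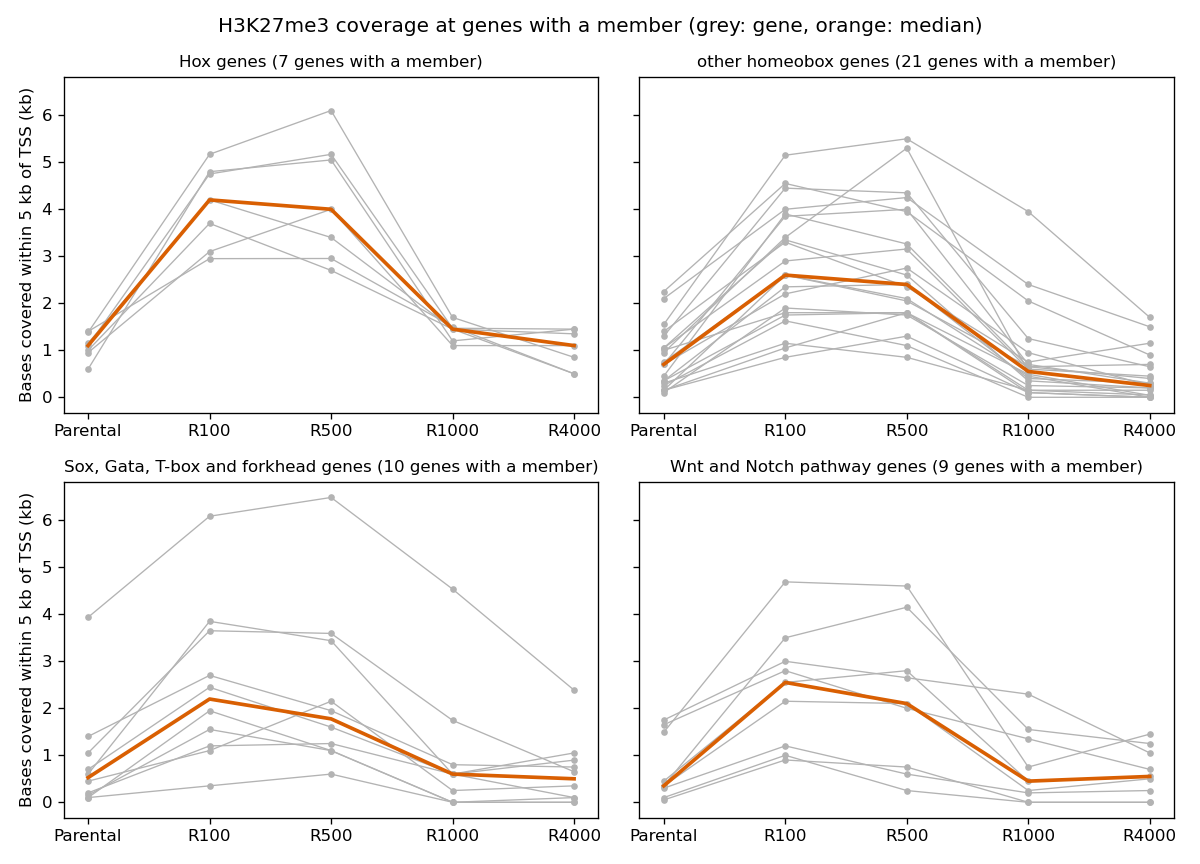
Bases covered by H3K27me3 peaks within 5 kb of the TSS (vertical axis, kb) in the 5 lines (horizontal axis) for genes with a member in 4 gene lists. Windows of neighbouring Hox genes overlap. Grey lines are genes and the orange line is their median, which for Hox genes is 1100 bp for the parental line and 1450 bp for R1000, and for other homeobox genes 700 and 550 bp; lines join values of separate cell lines and the members themselves are among the bases counted.

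Genes of B cells and other blood lineages were represented by single genes. A member was found at 4.17% of B-cell transcription factors and 3.33% of genes of other blood lineages, each a count of 1 gene, beside 1.62% of all protein-coding genes. Among only the genes with a region present in the parental line, R100 and R500, these counts were 1 of 2 and 1 of 5. Over all protein-coding genes with such a region the share was 24.3%. Among 24 B-cell transcription factors, 2 had a region present in the parental line, R100 and R500, and 1 of these, Bcl6, the repressor of the germinal centre programme, had a member. Around its TSS 750, 1200, 1150, 800 and 550 bp were covered from the parental line to R4000. None of 29 listed genes of the B-cell receptor, surface markers and recombination had either kind of region. The kappa variable segment Igkv9-129, with a member 1387 bp from its TSS, was not among these 29. Of 30 genes of other blood lineages, 5 had such a region and 1, Tal1, a factor of erythroid cells and T-cell leukaemia, had a member. At Tal1 2400, 3900, 4200, 3000 and 2850 bp were covered, so it was covered more in R1000 and R4000 than in the parental line. Of 166 chemokine, cytokine and receptor genes, 8 had such a region and Il10 and Tnfrsf1a had a member. Around the TSS of Il10, an anti-inflammatory cytokine, 1150, 1900, 3400, 1250 and 700 bp were covered, and around that of Tnfrsf1a, a receptor for tumour necrosis factor, 600, 3450, 2700, 500 and 200 bp.

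Some genes tied to damage response, drug handling and the cell cycle also had a member, and these lists are read against the same 1.62% of all protein-coding genes. A member was found at 4% of p53 pathway genes, 4.08% of alkylator detoxification genes and 3.95% of cyclins, Cdks and related genes, each a count of 3 genes or fewer. Among only the genes with a region present in the 3 lines, these shares were 14.3, 50 and 30%. The share over all protein-coding genes with such a region was 24.3%, so these lists were not all above it. Of 25 genes of the p53 pathway, 7 had a region present in the 3 lines and Gadd45g alone had a member, with 1950, 4300, 3850, 1400 and 950 bp covered around its TSS. Among 49 genes of alkylator detoxification and efflux, 4 had such a region and 2 a member. They were Aldh1a2, a retinaldehyde dehydrogenase (2050, 2450, 2450, 2050 and 1800 bp), and Abcc3, an ABC transporter (250, 400, 50, 0 and 0 bp). None of 51 crosslink and double-strand break repair genes and none of 30 Polycomb and H3K27 demethylase genes had a member, against 1 and 5 with any region present in the 3 lines. Just outside the 5 kb window, a member lay 5424 bp from the TSS of the H3K27 demethylase gene Kdm6b. It was covered over 100, 1100 and 550 bp. Of 76 cyclins, Cdks and related genes, 10 had such a region and 3 a member, namely Cdk18, Cdc14b and Cdk4. Around Cdk4, the kinase that drives cells through G1, 450, 811, 1150, 661 and 250 bp were covered. The member counted for Cdk4 was nearer to another gene, 211 bp from the TSS of March9. Of 83 ribosomal protein genes, 25 had such a region, 23 had one in all 5 lines and only Rpl26 had a member, with 450, 550, 400, 0 and 0 bp.

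The next counts are of genes with a region present in the 3 lines, of which 24.3% had a member over all protein-coding genes. Among receptors and channels of excitable and other tissues, 8 of 18 such G-protein-coupled receptor genes had a member (44.4%). Of these 8, 4 had no R1000 or R4000 peak within 5 kb of the TSS. These 4 were Gpr62, Gpr20, Gpr45 and the somatostatin receptor gene Sstr2, which were covered over only 50 to 100 bp in the parental line. For calcium, sodium and ligand-gated channels 5 of 12 had a member, and for potassium channels 2 of 16. Of the Fgf, Bmp and Gdf group 3 of 13 had a member. They included Nog, a Bmp antagonist, with 450, 1200, 1250, 150 and 0 bp. The counts were 4 of 17 for ephrin, semaphorin, slit and netrin genes, 4 of 12 for collagen and matrix genes and 0 of 3 for cadherins and protocadherins. With so few genes a list, these counts do not separate the lists from one another.

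In position, 385 of the members (65.0%, 95% Wilson interval 61.1 to 68.8%) lay within 5 kb of a TSS, and 34 (5.74%) over one. Of the regions in all 5 lines 81.7% lay within 5 kb (79.8 to 83.5%) and 22.6% over a TSS. Regions absent only in R4000 were intermediate, with 70.4% (66.9 to 73.8%) within 5 kb. Those absent only in R1000 were near the members, with 65.7% (59.5 to 71.4%). For all union regions the share was 53.8%. It was 34.9% for regions found in the parental line alone and 68.7% for those found in R100 and R500 alone. Exons were overlapped by 27.7% of members and by 57.2% of regions in all 5 lines, while 31.9 and 17.1% were intronic and 40.4 and 25.7% intergenic. Wider regions meet exons and TSS more readily, so the sets were also compared by width. In regions of 500 to 950 bp, 71.7% of 152 members and 82.5% of 624 regions in all 5 lines lay within 5 kb of a TSS, and in regions of 300 to 450 bp 62.4% of 221 and 70.6% of 160 did. The 207 members farther than 5 kb from a TSS had a median distance of 13674 bp, and 129 of them had an R1000 or R4000 peak within 1000 bp.

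**Figure D5:**
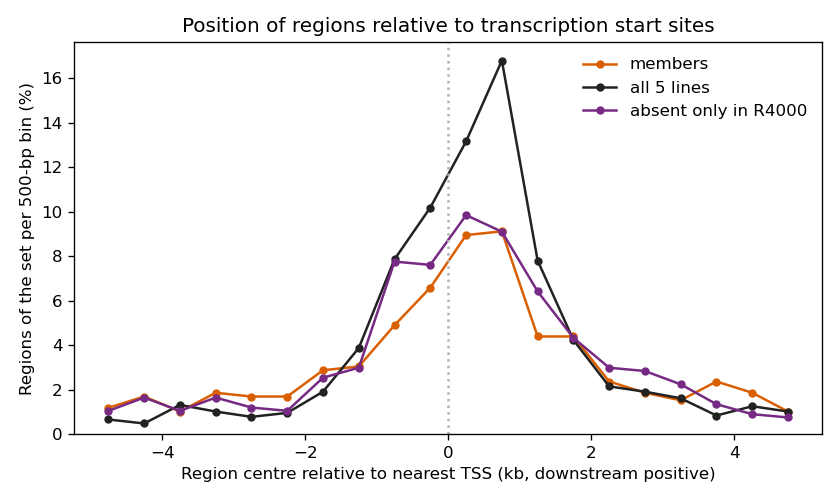
Share of regions in each 500-bp bin (vertical axis, %) by the distance of the region's centre from the nearest TSS (horizontal axis, kb, downstream positive). Lines stand for the 592 members, the 1678 regions in all 5 lines and the 670 regions absent only in R4000; within 500 bp of the TSS lay the centres of 15.7% of members, 23.4% of regions in all 5 lines and 17.5% of those absent only in R4000.

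The base composition of members was close to that of all union regions and less rich in CpG than that of retained regions. In the 300 bp around the centre, the median GC content was 52.7% in members (quartiles 48.7 and 57.0%), 55.3% in regions in all 5 lines and 50.7% in all union regions. The median ratio of observed to expected CpG was 0.341, 0.562 and 0.292 in the same order, and 0.403 in regions absent only in R4000. A GC content over 50% together with a CpG ratio over 0.6, the composition of a CpG island, was found in 101 members (17.1%), 38.6% of regions in all 5 lines and 17.3% of all union regions. Other regions without an R1000 or R4000 peak lay on either side of the members. Those found in the parental line alone had a median CpG ratio of 0.184, and 1.15% had this composition. For those found in R100 and R500 alone the values were 0.418 and 29.8%. The GC difference was not seen among regions of like width, where medians were 53 and 52% in members and regions in all 5 lines of 300 to 450 bp, and 54% in both at 500 to 950 bp. The share with the composition of a CpG island was lower in members in each class of width. It was 12.1 and 31.0% for regions of up to 250 bp, 17.6 and 26.9% for regions of 300 to 450 bp, 21.7 and 33.8% for 500 to 950 bp, and 25 and 44.5% for at least 1000 bp, where there were 20 members. No test was made, since regions of the same libraries are not replicates.

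E-box motifs, which are bound by E2a and related factors, were searched on both strands of the same 300 bp. CAGCTG was found in 17.2% of members, 16.1% of regions in all 5 lines and 17.9% of all union regions. CAGGTG was found in 24.7, 23.4 and 24.1%. The letters GAGAG occurred in 68.6% of members and 64.7% of all union regions. CGCG occurred in 25% of members, 48.4% of regions in all 5 lines and 23.7% of all union regions. The E-box shares of members were thus near those of all regions, and CGCG, like the CpG ratio, was less frequent in members than in retained regions.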

How the data were processed

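H3K27me3 ChIP-seq of 5 lines was analysed, and the RRBS samples were not analysed here. To call peaks, the authors set immunoprecipitated against input reads in genomic windows under a Poisson model, and the deposited list of each line holds peak positions without a count, score or p-value. The submitters' processing notes name Bowtie and mm9. The study gives a threshold for calling a promoter enriched and describes replicate ChIP-seq, but whether that threshold and pooled replicates underlie the deposited lists is not given in the sources used here. The R100 and R500 lists hold every peak 2 times, and distinct peaks were used. All peaks fell within the chromosome lengths of NCBIM37 (mm9).

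Overlapping peaks (at least 1 bp) of all lists were merged, and covered bases, gaps, TSS distances (the 5′ ends of 37273 genes in GENCODE for NCBIM37) and base composition were computed in Python 3.11.15 with pandas 2.3.3, numpy 2.4.6, statsmodels 0.14.6 (Wilson intervals) and pysam 0.24.0. Figures used matplotlib 3.10.9. The merging step was tested on simulated data. Named regions were the 25 with the largest coverage in whichever of the parental line, R100 and R500 covered them least, then members of 22 gene lists, genes with most members, and regions at the border of the rule. Isolated members, far from any R1000 or R4000 peak, were named after their values had been seen. Members and lists were chosen with earlier results of these data known. Depth is unknown, so the intervals cover counting only. The alternatives were other peak widths, chromosomes, overlaps, definitions of absence, list lengths, TSS windows and sequence windows.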

Additional observations from a re-analysis of the deposited data

How the results depend on the processing

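No paired analysis was possible because each line has 1 list and no result comes from a test. There were 592 members, 18.6% of regions in the parental line, R100 and R500, and 65.0% of them lay within 5 kb of a TSS. With peaks of at least 200 bp these values were 302, 22.9% and 69.2%. Without R1000 or R4000 peaks within 1000 bp they were 196, 6.16% and 60.2%, and within 5 kb 85 and 2.67%, since absence was required over more bases. Keeping only the 6820 widest peaks of every list gave 214, 10.2% and 70.6%. A base shared by all 3 lines was required in another setting, where members made up 15.1%. Peaks within 1000 bp joined gave 49.2% near a TSS. A window of 2 kb gave 46.3% near a TSS, and protein-coding genes alone gave 60.1%. The share of genes with another R1000 or R4000 peak was 85.4% within 5 kb of the TSS and 88.5% within 10 kb. Except for the constructions named, the cause of these shifts was not tested. In the other 17 comparisons, among them autosomes alone, peaks of at least 100 bp, duplicate rows kept and base composition over the whole region, counts stayed within 1.5 times, shares within the 95% interval of the main value, and composition within 1 SD over members. Unknown depth limits every statement of absence.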

Other observations

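The members were spread over all autosomes. As a share of the regions with a peak in the parental line, R100 and R500, they ranged from 9.84% on chromosome 18 (6 of 61) to 26.8% on chromosome 9 (41 of 153, 95% Wilson interval 20.4 to 34.3%), beside 18.6% over the genome. Chromosome 6, which held the most members, had 59 of 305 (19.3%). The X chromosome had 1 of 9. Of all members, 107 lay within 5 kb of another member, and 64 protein-coding genes had more than 1 member within the gene or 5 kb of it.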
